A study of Mus musculus with 9 samples.

Results

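This account describes 8 imprinted genes in mouse prostate epithelial cells of a wild-type and an Rb-null line: Peg3, Ndn, Snrpn, Mest, Plagl1, Dlk1, H19 and Grb10. The arrays named 8251 genes by at least 1 probe set of their own. Every probe set (the group of short probes that reads a transcript on the array) annotated to a member was taken, and each is described apart. There were 13 such probe sets for 7 of the 8 genes, and Snrpn is not analysed here. The genes were chosen from values of these same arrays, since Peg3 was known to differ between the lines, so the differences between the lines are a description with no test for these 8 genes. The changes after serum withdrawal did not enter the choice and were tested. Each of them shares its serum arrays with the line difference in serum, so these tests are not fully independent of the choice.

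Total RNA was read on 9 single-channel arrays. The control line is wild-type and the other is Rb-/-, called Rb-null here, a genotype without the retinoblastoma gene Rb1. Cells grew in RPMI-1640 with 5% fetal bovine serum or stayed in the same medium without serum for 48 hours. There were 3 wild-type arrays in serum, 2 wild-type arrays without serum, 2 Rb-null arrays in serum and 2 Rb-null arrays without serum. There was 1 line per genotype, so each difference between the lines belongs to these lines, and genotype and line cannot be told apart. No label ties the arrays of a group to separate cultures, so p-values measure only the spread between arrays. The number of arrays limits the precision.

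An imprinted gene is expressed mainly from the allele inherited from one parent, and the silent allele is commonly marked by DNA methylation laid down in the germ line. Many imprinted genes act on growth, and many are abundant in the embryo and fall after birth. The arrays measured total transcript, so neither the allele that was read nor methylation was measured. Peg3, Ndn, Snrpn, Mest, Plagl1 and Dlk1 are expressed from the paternal allele. H19 is expressed from the maternal allele, and Grb10 from the maternal allele in most tissues outside the brain.

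The arrays had median deposited intensities of 445 to 474. Values were quantile normalized, and a floor of 197, set at percentile 25 of the whole table, replaced anything lower. Wild-type serum 1 stood apart, with rank correlations of 0.986 and 0.983 to the other wild-type serum arrays, which correlated at 0.997 with each other. The lowest rank correlation within the other groups was 0.994. Rb1 read 361 to 713 on the wild-type arrays and 112 to 166 on the Rb-null arrays on its brighter probe set, in the direction of the labels. Of 10 prostate epithelium markers 8 had a probe set, and none of the 8 lay below the floor. Of the markers of other cell types, Acta2, Myh11 and Cnn1 of 6 for smooth muscle, Vim, Lum, Pdgfrb and Col5a2 of 13 measured for mesenchyme, and Ptprc, Lyz2 and Cd79b of 6 for leukocytes lay below the floor on every array. Others lay above it, among them Fn1 with a normalized mean of 5678 in wild-type serum cells, Smtn with 2224, Col1a2 with 1205 and Cd68 with 604.

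The 250 bases before the annotated start are shown for the 3 genes with probe sets on which wild-type and Rb-null arrays stood apart, read 5′ to 3′ on the gene's strand from RefSeq on GRCm38.p6, with each CG dinucleotide, the target of DNA methylation, in capitals. The Peg3 stretch lies at chr7:6730420-6730669 on the minus strand, the Ndn stretch at chr7:62348027-62348276 on the plus strand and the Mest stretch at chr6:30737800-30738049 on the plus strand.
Peg3: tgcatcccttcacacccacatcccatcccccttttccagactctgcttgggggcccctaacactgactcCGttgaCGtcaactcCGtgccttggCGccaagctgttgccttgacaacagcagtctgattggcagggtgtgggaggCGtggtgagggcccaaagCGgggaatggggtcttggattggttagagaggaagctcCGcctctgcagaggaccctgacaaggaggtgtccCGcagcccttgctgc
Ndn: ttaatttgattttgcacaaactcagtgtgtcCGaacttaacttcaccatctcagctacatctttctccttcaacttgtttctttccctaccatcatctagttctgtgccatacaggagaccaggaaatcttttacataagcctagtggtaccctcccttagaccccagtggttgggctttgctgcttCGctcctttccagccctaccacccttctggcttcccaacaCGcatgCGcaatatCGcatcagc
Mest: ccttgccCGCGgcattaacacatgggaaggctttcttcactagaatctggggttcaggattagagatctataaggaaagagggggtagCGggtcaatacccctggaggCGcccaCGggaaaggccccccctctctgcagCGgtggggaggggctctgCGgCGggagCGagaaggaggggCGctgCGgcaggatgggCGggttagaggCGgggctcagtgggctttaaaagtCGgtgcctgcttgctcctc
Of the Mest stretches in the table, the first with the most CG is shown. It held 14 CG dinucleotides, the Peg3 stretch 8 and the Ndn stretch 5, against a median of 6 over 32817 promoters of the same length. At least 14 CG dinucleotides were held by 29.3% of all promoters, at least 8 by 43% and at least 5 by 55.6%, so these counts lay in the ordinary range. RefSeq promoters matched 7 of the 8 genes, 12 stretches in all, and H19 had none in the table. Among the 12, a Grb10 stretch had 40 CG dinucleotides, as many as only 1.31% of all promoters reached, and Plagl1 had 19.

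The promoters were also searched on both strands for letters that known factors bind. TGCCGC, the hexamer of ZFP57, a zinc finger protein that protects imprinted methylation, occurred in 3 of the 12 stretches, in 2 overlapping Mest stretches and in Plagl1, and in 8.68% of all promoters. GCCATNTT, the YY1 motif, occurred in none of the 12 and in 3.9% of all promoters. The E2F spellings TTTCCCGC, TTTCGCGC and TTTGGCGC occurred in none of the 12 and in 1.53% of all promoters. A match describes letters in these windows and is no measured site.

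Of the 13 probe sets, 9 for 6 genes passed the filter of a value above the floor on at least 2 arrays. The other 4 lay below the floor on all 9 arrays: that listed for H19, a second Plagl1 probe set and 2 of the 3 Grb10 probe sets. Because Mest and the Peg3 and Ndn probe sets near the floor passed through the line in which they were high, the 9 are not a fair count of imprinted genes that differ.

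**Figure D1:**
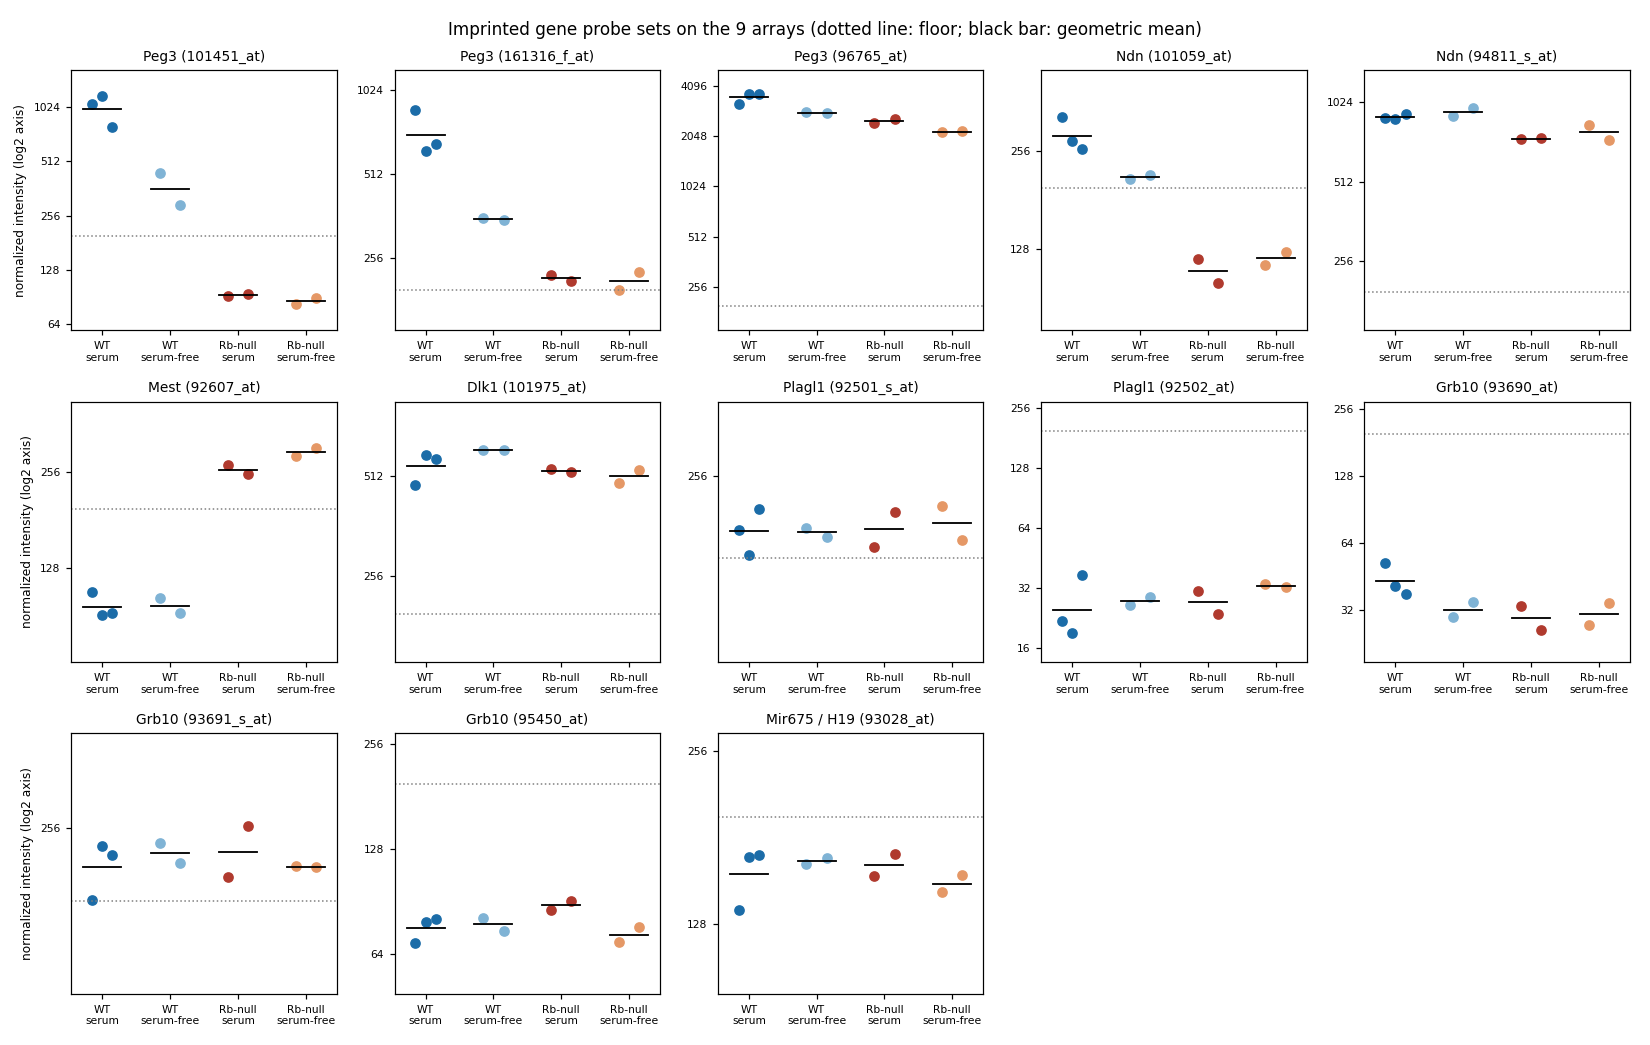
Normalized intensity (log2 axis) of the 13 imprinted gene probe sets on the 9 arrays, 1 panel a probe set, 1 point an array, with the geometric mean of each group as a black bar and the floor of 197 as a dotted line. Peg3 101451_at and Ndn 101059_at lie under the floor on all 4 Rb-null arrays, and Mest lies under it on all 5 wild-type arrays.

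Peg3 encodes a large zinc finger protein expressed from the paternal allele and known for effects on growth, maternal behaviour and cell survival. All 3 of its probe sets were lower in the Rb-null line in the normalized values, by very different amounts. On 101451_at the deposited intensities were 1079, 1136 and 767 on wild-type arrays in serum, 434 and 287 on those without serum, 91.8 and 95.8 on Rb-null arrays in serum and 80.3 and 86.1 on Rb-null arrays without serum. Every wild-type array was above every Rb-null array, and the Rb-null arrays all lay under the floor. In bulk RNA, fewer cells with a transcript and less of it per cell cannot be told apart. Against the floor, Peg3 on this probe set was at least 5.07-fold lower in the Rb-null line in serum and at least 1.82-fold lower without serum. With no floor the log2 differences were -3.42 and -2.05. With the floor at percentile 40 the bounds were -1.58 and -0.20 on the log2 scale, and leaving out wild-type serum-free 1 moved the bound without serum to -0.58.

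The second Peg3 probe set, 161316_f_at, carries a suffix that the array maker gives to probe sets whose probes can also match related transcripts. Its deposited intensities were 871, 617 and 641 in wild-type cells in serum, 355 and 340 in wild-type cells without serum, 223 and 215 in Rb-null cells in serum and 190 and 223 in Rb-null cells without serum. The wild-type arrays again all lay above the Rb-null arrays, which here sat at or just above the floor. The log2 difference was -1.70 (SE 0.14) in serum and -0.74 (SE 0.15) without serum. With the floor at percentile 40 these shrank to -1.08 and -0.08.

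The brightest Peg3 probe set, 96765_at, stayed well above the floor on all arrays. Its normalized intensities were 3196, 3660 and 3648 in wild-type cells in serum, 2840 and 2823 without serum, 2446 and 2608 in Rb-null cells in serum and 2169 and 2188 without serum. On this scale the 4 groups fell in that order with no overlap between neighbours, and the log2 difference between the lines was -0.47 (SE 0.07) in serum and -0.38 (SE 0.08) without serum. As deposited, the wild-type serum-free arrays read 2527 and 2533 and the Rb-null serum arrays 2731 and 2806, so the order of those groups depended on the normalization. As deposited, the log2 difference between the lines was -0.29 in serum and -0.15 without serum.

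Over the 9 arrays the 3 Peg3 probe sets ran together, with Pearson r of 0.97, 0.93 and 0.90 between pairs, although all pairs share the same group differences. They disagreed in size: the averaged log2 difference between the lines was -0.42 on 96765_at, -1.22 on 161316_f_at and -1.60, a bound, on 101451_at. The sources used here do not say which parts of the transcript they read.

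Ndn encodes necdin, a protein of the MAGE family known for restraining growth in neurons, and lies in the imprinted cluster that also holds Snrpn and Magel2. On 101059_at the deposited intensities were 320, 281 and 267 on wild-type arrays in serum, 213 and 212 on those without serum, 118 and 102 on Rb-null arrays in serum and 110 and 120 on Rb-null arrays without serum. Wild-type and Rb-null arrays stood apart, and all the latter lay under the floor. Against the floor, Ndn was at least 1.45-fold lower in the Rb-null line in serum and at least 1.08-fold lower without serum. With no floor the log2 differences were -1.38 and -0.83.

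The second Ndn probe set, 94811_s_at, was brighter and differed less. Its normalized intensities were 891, 885 and 928 in wild-type cells in serum, 905 and 972 without serum, 742 and 748 in Rb-null cells in serum and 843 and 735 without serum. The lines did not overlap on this scale, whereas within each line the media overlapped. The log2 difference was -0.27 (SE 0.09) in serum and -0.25 (SE 0.09) without serum. As deposited, 1 Rb-null serum-free array read 878, inside the wild-type range of 860 to 902, and the averaged log2 difference went from -0.26 to -0.15. The correlation between the Ndn probe sets was 0.80 over the 9 arrays.

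Mest encodes a protein of the alpha/beta hydrolase family and was the member that was higher in the Rb-null line. Its deposited intensities were 106, 94.6 and 95.4 on wild-type arrays in serum, 106 and 93.1 on those without serum, 268 and 257 on Rb-null arrays in serum and 279 and 297 on Rb-null arrays without serum. All 4 Rb-null arrays were above the floor and all 5 wild-type arrays under it. Against the floor, Mest was at least 1.32-fold higher in the Rb-null line in serum and at least 1.5-fold higher without serum. With no floor the log2 differences were 1.42 and 1.59.

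Dlk1 encodes a membrane protein related to Notch ligands and marks immature cells of many tissues. Its normalized intensities were 479, 593 and 574 in wild-type cells in serum, 611 and 612 without serum, 536 and 526 in Rb-null cells in serum and 488 and 534 without serum. The lines overlapped in serum, where wild-type serum 1 was the lowest array of all. The log2 difference was -0.04 (SE 0.10) in serum, and -0.13 with wild-type serum 1 left out. Without serum it was -0.26 (SE 0.11), and there the lines did not overlap.

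Plagl1, a zinc finger transcription factor known to slow the cell cycle, stayed between 203 and 236 in deposited intensity on 92501_s_at, just above the floor, with all groups overlapping. Its averaged log2 difference between the lines was 0.03 (SE 0.06). Grb10, an adaptor that restrains insulin and growth factor receptor signalling, stayed between 195 and 263 on 93691_s_at, with an averaged log2 difference of 0.00 (SE 0.07). The other Plagl1 probe set read 20.4 to 37.4, and the other Grb10 probe sets read 24.4 to 50.03 and 66.2 to 92.7, all under the floor.

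H19 is a long non-coding RNA from the maternal allele, and its transcript also carries the microRNA Mir675, for which the same probe set is listed. That probe set read 132, 174 and 173 in wild-type cells in serum, 166 and 166 without serum, 155 and 172 in Rb-null cells in serum and 140 and 150 without serum. All 9 values lay under the floor, so only a bound is known for H19 in these lines.

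In normalized values, wild-type and Rb-null arrays were apart for 6 of the 9 tested probe sets, 5 lower in the Rb-null line (Peg3 and Ndn) and 1 higher (Mest). The arrays of the lines were apart in the same way for 12.5% of all tested probe sets lower and 11% higher. Over all genes, 22.6% were called higher and 23.9% lower in the Rb-null line on average over the media, so differences between these lines were common. Since the genes were chosen from this contrast, nothing is read from the members' count. The split of all called probe sets depended on the scaling: 48.1% of them were higher after quantile normalization, 60.7% after scaling to a common median and 69.3% as deposited. The members' directions held under these scalings for Peg3, Ndn and Mest.

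**Figure D2:**
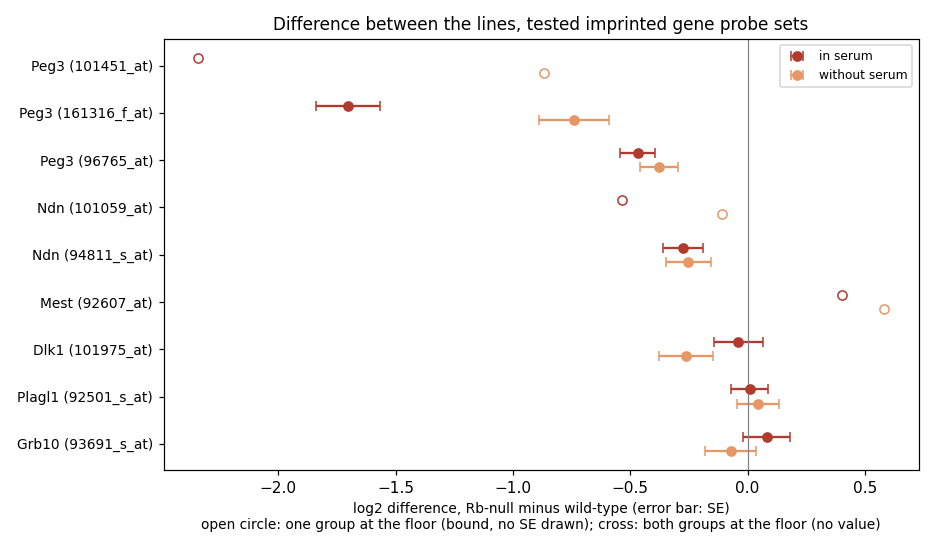
Log2 difference between the lines, Rb-null minus wild-type, for the 9 tested probe sets in serum and without serum, with the standard error as the bar. Open circles are bounds set by the floor; Peg3 161316_f_at shows the farthest shift that is no bound, -1.70 in serum.

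Markers of other cell types also moved between the lines, and their part in the members' differences was not tested. The counts below, on average over the media, stand beside 22.6% of all genes called higher and 23.9% called lower. Of 3 smooth muscle markers above the floor 2 were lower in the Rb-null line, and the summed intensity of the 6 markers was 3317 to 3904 and 3033 to 3109 in wild-type cells with and without serum against 2455 to 2488 and 2257 to 2343 in Rb-null cells. Of 4 neuroendocrine markers above the floor 3 were lower, with sums of 2924 to 3269 and 3095 to 3231 against 2473 to 2625 and 2517 to 2674, while Chgb and Scg2 lay below the floor on all arrays. Of 8 mesenchyme markers above the floor 2 were higher and 2 lower, and the sums were 10349 to 11168 and 10568 to 10773 against 13010 to 13400 and 10794 to 11364. Of 5 endothelium markers 3 were lower and of 3 leukocyte markers 1, while no epithelium marker of 8 was called on average over the media. In serum Krt8 was higher in the Rb-null line (log2 0.22, limma adjusted p = 0.0198), and without serum Krt18 was lower (-0.26, adjusted p = 0.0321).

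Serum withdrawal asked which imprinted genes moved when serum was removed for 48 hours. In the wild-type line Peg3 fell on all 3 of its probe sets and Ndn on 1 of 2. These 4 of the 9 tested probe sets were lower without serum and none was higher, against 9.25% lower and 6.61% higher of all probe sets. The 4 belong to Peg3 and Ndn alone, and Peg3 101451_at and Ndn 101059_at passed the filter only through wild-type arrays. The serum arrays also entered the choice of Peg3, so nothing is read from this count. On Peg3 101451_at the fall was 2.78-fold (log2 -1.48, SE 0.19, limma adjusted p = 0.000744), with both serum-free arrays below all 3 serum arrays. On 161316_f_at it was 2.00-fold (log2 -0.997, SE 0.14, limma adjusted p = 0.00118), and without wild-type serum 1 the log2 change was -0.85 (adjusted p = 8.36e-05). Over the 17 alternatives the adjusted p ran from 0.000272 to 0.0139 for the former and from 8.36e-05 to 0.0218 for the latter.

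Peg3 96765_at fell by 0.30 on the log2 scale (SE 0.07, limma adjusted p = 0.0234), and leaving out wild-type serum 2 ended the call (-0.27, adjusted p = 0.0789), as did serum 3 (-0.27, 0.0602), serum-free 1 (-0.31, 0.128) or serum-free 2 (-0.30, 0.145), in a range of 0.00114 to 0.145 over the alternatives. With the replicate number as a block its adjusted p was 0.0601. Ndn 101059_at fell by 0.42 (SE 0.09, limma adjusted p = 0.00942), and the call was lost without wild-type serum-free 1 (-0.40, adjusted p = 0.0886) or serum-free 2 (-0.44, 0.07), in a range of 0.00148 to 0.0886. For both probe sets the size of the fall moved little in these fits while the adjusted p rose above the threshold. Ndn 94811_s_at stood at 0.06 (SE 0.09, limma adjusted p = 0.695). Dlk1 had a log2 difference of 0.16 (limma adjusted p = 0.355), Grb10 of 0.07 (0.662) and Plagl1 of -0.01 (0.98). Mest lay at the floor in both media in this line and gives no value. Of the markers, the smooth muscle gene Smtn fell in this line as well (-0.49, limma adjusted p = 0.00985), and its part in these falls was not tested.

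In the Rb-null line none of the 9 probe sets passed the threshold after withdrawal (limma), against 7.5% higher and 6.42% lower of all probe sets. At an unadjusted p under 0.05 there were 2, Mest at 0.18 (SE 0.06, adjusted p = 0.0818) and Peg3 96765_at at -0.21 (SE 0.08, adjusted p = 0.137). The Peg3 value was called as deposited (adjusted p = 0.0277), after scaling to a common median (0.0475) and without wild-type serum 1 (0.0206), in a range of 0.0206 to 0.567. Mest was called without wild-type serum 1 (adjusted p = 0.047) and with no filter on low values (0.0371), in a range of 0.0371 to 0.487. Peg3 101451_at and Ndn 101059_at lay at the floor in both media and give no value, so neither could be called. Peg3 161316_f_at stood at -0.04 (SE 0.15, limma adjusted p = 0.956). Among the markers Krt8 (-0.31, limma adjusted p = 0.00971), Krt18 (-0.34, 0.0161) and the mesenchyme gene Sparc (-1.18, 0.00629) fell in this line, and their part was not tested.

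**Figure D3:**
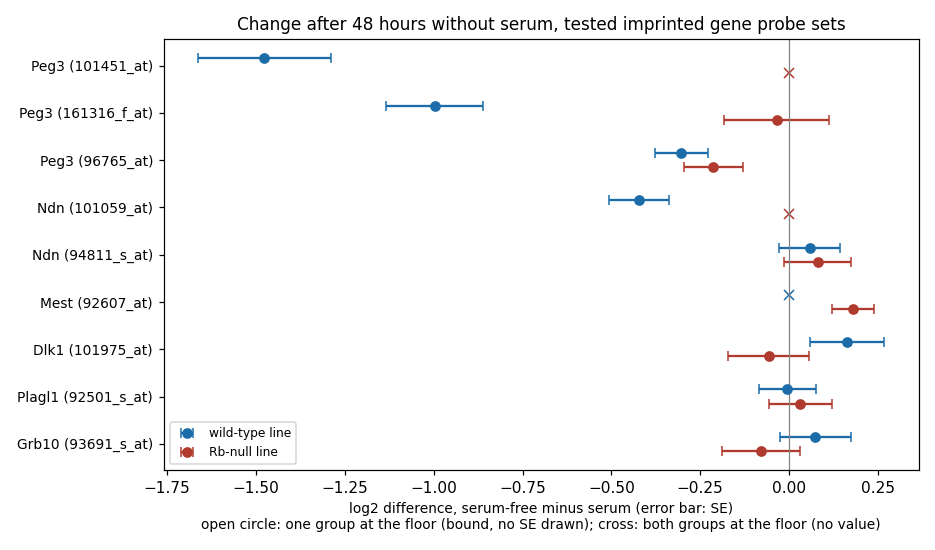
Log2 change after 48 hours without serum, serum-free minus serum, for the 9 tested probe sets in each line, with the standard error as the bar. The falls of Peg3 101451_at (-1.48) and 161316_f_at (-0.997) in the wild-type line stand beside a cross at the floor and a value of -0.04 in the Rb-null line.

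Whether the change differed between the lines was tested directly as the interaction, for the 6 of 9 probe sets with signal above the floor in both lines. Peg3 101451_at and Ndn 101059_at lay at the floor on all Rb-null arrays and Mest on all wild-type arrays, so for these 3 the changes cannot be compared and no interaction is given. None of the 6 passed (limma), against 0.929% of all probe sets, and 1 had an unadjusted p under 0.05. This was Peg3 161316_f_at, with a difference of 0.96 on the log2 scale (SE 0.20, adjusted p = 0.0769). It was called without wild-type serum 1 (0.81, adjusted p = 0.00764), in a range of 0.00764 to 0.374. Its Rb-null arrays sat at or just above the floor, where a fall could hardly be read. For the other 5 probe sets the adjusted p lay between 0.630 and 0.952.

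Other imprinted genes were taken from a list of 61, many of which had no probe set on these arrays. The others were each read by the brightest probe set, and 28 passed the filter. These genes were not picked for a difference, and they were tested between the lines. Earlier results of these data were known when the list was drawn up. On average over the media 7 were higher in the Rb-null line, 8 lower and 13 were not called, beside 22.6% and 23.9% of all genes. Their median log2 difference was -0.07, beside -0.05 over all genes. Of 7 tested genes listed as expressed from the paternal allele 1 was higher and 2 lower. Of 18 listed as expressed from the maternal allele 6 were higher and 4 lower. The expressed allele can vary with the tissue and was not measured, so a listed gene need not be imprinted in these cells.

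Among genes higher in the Rb-null line, Igf2r, the receptor that carries insulin-like growth factor 2 to the lysosome, had normalized means of 639 and 541 in wild-type cells with and without serum and 854 and 990 in Rb-null cells (log2 0.65, SE 0.09, limma adjusted p = 0.000553). H13, a signal peptide peptidase, was higher by 0.52 (SE 0.06, adjusted p = 0.000198) and Commd1, a regulator of copper handling and NF-kB, by 0.46 (SE 0.08, adjusted p = 0.0013). Wild-type and Rb-null arrays did not overlap for these 3. Impact was higher by 0.28 (adjusted p = 0.00231), a bound since all wild-type arrays lay at the floor, and Pon3, a paraoxonase, by 0.26 (adjusted p = 0.0132), a call lost without Rb-null serum 2 (0.0623, in a range of 0.00416 to 0.0623). Ube3a, a ubiquitin ligase of the Ndn cluster listed as maternally expressed, was higher by 0.50 (SE 0.15, limma adjusted p = 0.025). However, wild-type serum 1 read 921, above every Rb-null array. The call was kept in 10 of 17 alternatives, with adjusted p from 6.67e-06 without wild-type serum 1 to 0.0895. Ampd3, an AMP deaminase, was higher by 0.23 (adjusted p = 0.028), a call kept in 6 of 17 alternatives (0.000389 to 0.102), and by 0.06 with the floor at percentile 40.

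Among the genes lower in the Rb-null line, Cd81, a tetraspanin, had normalized means of 4179 and 4412 in wild-type cells and 2038 and 2704 in Rb-null cells (log2 -0.87, SE 0.05, limma adjusted p = 1.92e-06). Blcap was lower by 0.68 (SE 0.06, limma adjusted p = 3.17e-05) and Sgce, a sarcoglycan, by 0.50 (SE 0.07, limma adjusted p = 0.000543). In normalized values the lines did not overlap for Cd81 and Sgce but did for Blcap. As deposited, Blcap read 1009 on Rb-null serum-free 1, against 943 to 1001 on wild-type arrays in serum. Within each medium its lines stood apart. Gnas, the stimulatory G protein alpha subunit, was lower by 0.18 (SE 0.04, limma adjusted p = 0.00766). Its other tested probe set stood at -0.04 (limma adjusted p = 0.748). Meg3, a long non-coding RNA of the Dlk1 cluster, was lower by 0.36 (SE 0.09, adjusted p = 0.0134), whereas its other probe set stood at -0.00 (adjusted p = 0.982). The Meg3 call was lost without Rb-null serum 2 (adjusted p = 0.0528), Rb-null serum-free 1 (0.0543) or wild-type serum-free 2 (0.0549), in a range of 0.000142 to 0.0549.

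**Figure D4:**
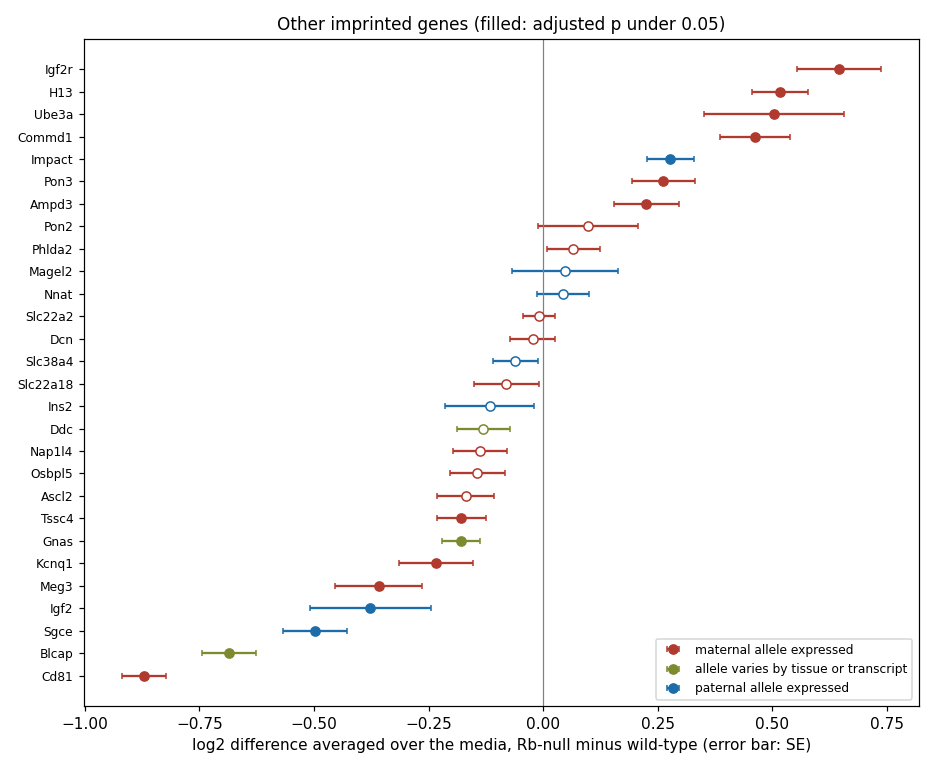
Log2 difference averaged over the media, Rb-null minus wild-type, for the 28 tested imprinted genes outside the 8, with the standard error as the bar. Genes are ordered by value, coloured by the allele listed as expressed and filled where the limma adjusted p was under 0.05. Igf2r stands highest at 0.65 and Cd81 lowest at -0.87.

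The genes that share a cluster with H19 were measured even though H19 itself was under the floor. Cd81, given above with a difference of -0.87, is also counted as a neighbour of H19, and its call was kept in 17 of 17 alternatives. Igf2, the paternally expressed growth factor of that cluster, was lower in the Rb-null line by 0.38 (SE 0.13, limma adjusted p = 0.0431), with deposited values of 1472 to 1919 against 1504 to 2160, so the lines overlapped. That call was kept in 7 of 17 alternatives, with adjusted p from 0.000941 to 0.235. Kcnq1, a potassium channel, was lower by 0.23 (adjusted p = 0.0405), kept in 5 of 17 (0.000716 to 0.128), and Tssc4 by 0.18 (adjusted p = 0.0255), kept in 7 of 17 (0.00271 to 0.926) and turned to 0.02 as deposited. Ins2, Phlda2, Slc22a18, Ascl2, Nap1l4 and Osbpl5 were not called, with log2 differences from -0.17 to 0.07, and Cdkn1c did not pass the filter. Of the other neighbours, Magel2 of the Ndn cluster stood at 0.05 (limma adjusted p = 0.753) and Ddc beside Grb10 at -0.13 (limma adjusted p = 0.0954). Usp29 beside Peg3 and Mkrn3 beside Ndn did not pass the filter.

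After withdrawal, in the wild-type line 1 of the 28 was higher, Blcap by 0.66 (SE 0.08, limma adjusted p = 0.000563), and none lower, beside 7.22% and 9.32% of all genes, and at an unadjusted p under 0.05 there were 2 higher and 1 lower. In the Rb-null line 4 were higher and none lower, beside 7.62% and 6.64% of all genes, and no lower one was added at an unadjusted p under 0.05. The 4 in 28 lay above the 7.62% of all genes called higher, but the count is small and nothing is read from it. The 4 were Blcap by 0.52 (limma adjusted p = 0.0044), Impact by 0.43 (0.00518), Cd81 by 0.41 (0.00516) and Ampd3 by 0.43 (0.0232), and all 4 calls were lost without Rb-null serum 2 (adjusted p of 0.0548, 0.0679, 0.0674 and 0.138). Over all alternatives the lowest adjusted p were 0.000545, 0.00252, 0.00142 and 0.000741, and the highest for Impact was 0.0887, with the floor at percentile 10. Ampd3 was lost without any Rb-null array, with adjusted p from 0.0944 to 0.138. Impact lay at the floor on all wild-type arrays, and none of the other 27 passed the interaction (limma), with 2 at an unadjusted p under 0.05.

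Of 20 genes that keep or erase imprinted marks, 11 passed the filter, and several of the others had no probe set. On average over the media 3 were higher and 4 lower in the Rb-null line, beside 22.6% and 23.9% of all genes. Hells, a chromatin remodeller of DNA methylation, was higher by 0.81 (SE 0.09, limma adjusted p = 0.000119), the boundary factor Ctcf by 0.52 (adjusted p = 0.00193) and the maintenance methyltransferase Dnmt1 by 0.38 (adjusted p = 0.000417). The histone methyltransferase Ehmt2 was lower by 0.75 (adjusted p = 0.000615), Yy1 by 0.28 (adjusted p = 0.00626), and the demethylating enzyme Tet1 by 0.23 (adjusted p = 0.00512). The Yy1 call was lost as deposited (adjusted p = 0.141) and after scaling to a common median (0.0807), in a range of 0.00157 to 0.141. In the wild-type line 5 of the 11 fell and 1 rose after withdrawal, beside 9.32% and 7.22% of all genes, with Hells at -1.76, Dnmt1 at -0.86 and Ctcf at -0.60 (limma adjusted p of 1.84e-05, 4.92e-05 and 0.0112). The Ctcf call was lost without wild-type serum-free 1 (0.103) or serum-free 2 (0.0775), in a range of 0.00404 to 0.103. The gene that rose was Ehmt2, by 0.54 (limma adjusted p = 0.036), a call kept in 10 of 17 alternatives (0.0204 to 0.203). Uhrf1, a partner of Dnmt1, fell by 0.76 and Trim28, a corepressor of KRAB zinc finger proteins, by 0.38, both named after their values were seen. In the Rb-null line 3 of the 11 fell and 1 rose, beside 6.64% and 7.62% of all genes. Hells stood at -1.05 (SE 0.13, limma adjusted p = 0.000813), a call kept in 17 of 17 alternatives. Dnmt1 stood at -0.33 (adjusted p = 0.0193), a call kept in 13 of 17 (0.00484 to 0.135) and lost without Rb-null serum 1 (0.135), serum 2 (0.127) or serum-free 1 (0.117). Uhrf1 fell by 0.45 (adjusted p = 0.00765). Ehmt2 rose by 0.84 (adjusted p = 0.00805), a call kept in 14 of 17 (0.00342 to 0.0705) and lost without Rb-null serum 2 (0.0705) or serum-free 2 (0.0655).

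The genes whose values ran most like each member over the 9 arrays are given by Pearson r among about 8640 probe sets of other genes, a description in which all points share the 4 groups. For Peg3 96765_at they were Foxm1 (0.98), Adss (0.97) and Egfr (0.97), and for Peg3 101451_at, added after its values were seen, Larp7 (0.99), Ptpn22 (0.98) and Cyth3 (0.97). For Mest they were Ifi204, Hivep2 and Asb3 (0.99 each), for Ndn 94811_s_at Tdrp (0.99), Pih1d1 (0.98) and Uhmk1 (0.98), and for Dlk1 Gnaz (0.99), Otub1 (0.99) and Kifc3 (0.98). Likeness was lower for Grb10 (Tnnc2 0.94, Rab33b 0.92, Yes1 0.91) and Plagl1 (Myh8 0.90, Slc12a3 0.90, Gja5 0.87), both close to the floor. The r values were taken on floored values. Mest was tied at the floor on all wild-type arrays and Peg3 101451_at on all Rb-null arrays. Their r thus says nothing of likeness among those arrays.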

How the data were processed

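Total RNA of 9 single-channel arrays was analysed from the deposited table, in which the authors give 1 linear intensity per probe set and array. The sources used here do not state their summary method or scaling. The table held 12422 probe sets, 1 of them empty. Symbols came from the platform annotation, updated through a RefSeq gene table of GRCm38.p6: 10833 probe sets had 1 gene, 396 several and 1193 none.

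From these values, log2 intensities were computed after quantile normalization, with a floor at percentile 25 (197). Probe sets above the floor on at least 2 arrays were tested, 9686 in all. limma 3.58.1 in R 4.3.3 fitted 4 group means to all 9 arrays (lmFit, eBayes with an intensity trend, 5 residual and 4.20 prior degrees of freedom), two-sided, with Benjamini-Hochberg adjustment over the 9686, and an adjusted p under 0.05 counted as called. Normalized group means are geometric means of floored values, and a fold against a group wholly at the floor is a bound. The procedure was tested on simulated data.

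Members and lists were chosen with earlier results of these data known. Named were all member probe sets, other imprinted genes past the threshold by smallest adjusted p (up to 12 between the lines, 6 per withdrawal), tested cluster neighbours, up to 6 genes of imprint upkeep and the 3 most alike genes per member. Ampd3 in the line difference and the Peg3 101451_at likeness were added after their values were seen. A check of the replicate numbers showed no consistent pairing of the arrays, though it could not exclude one. The arrays carry no detection calls.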

Additional observations from a re-analysis of the deposited data

How the results depend on the processing

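Of 348 tested member values under the alternatives, 312 kept their direction and their side of the threshold, and of 558 for the other named genes 474 did. The cause of the changes below was not tested. With the replicate number as a block the interaction gave 51 calls in place of 90. In the same fit the fall of Peg3 96765_at in the wild-type line was no longer called (limma adjusted p = 0.0601). Deviations of replicate 1 from its group mean correlated between groups at -0.23 to 0.33. This showed no consistent pairing by replicate number but could not exclude one. The interaction gave 57 calls with the floor at percentile 10, 52 with no floor (added after seeing the data) and 57 with no intensity trend. Leaving out 1 array gave 12 to 255 interaction calls, 877 to 4376 line differences in serum (2287 with all arrays), 1159 to 4981 without serum (2971), 497 to 2280 changes in the Rb-null line (1348) and 667 to 1963 in the wild-type line (1536). The highest of each came without wild-type serum 1. Where an arm was left with 1 array, that array was assumed to vary like the other groups.

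Among other imprinted genes, leaving out 1 array gave 4 to 8 higher and 4 to 10 lower between the lines, 0 to 4 higher in the Rb-null line after withdrawal and 1 to 2 higher in the wild-type line. As deposited 5 were lower between the lines. With the floor at percentile 40, 2 were higher after withdrawal in the Rb-null line and 1 lower in the wild-type line.

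Small uncalled values changed sign (log2). Leaving out 1 array moved the Rb-null withdrawal change from -0.122 to 0.00785 for Dlk1, -0.212 to 0.0539 for Grb10, -0.0191 to 0.178 for Ndn 94811_s_at, -0.138 to 0.0682 for Peg3 161316_f_at and -0.0504 to 0.113 for Plagl1, the wild-type change from -0.0118 to 0.128 for Grb10 and -0.0598 to 0.0467 for Plagl1, and the interaction from -0.0763 to 0.122 for Ndn 94811_s_at and -0.0449 to 0.118 for Plagl1. As deposited, Ndn 94811_s_at in the wild-type line was -0.00485, Plagl1 was -0.0288 in the Rb-null line and -0.00204 in the interaction, and the called Tssc4 line difference was 0.0242. For Plagl1, a common median gave 0.0208 in the wild-type line and -0.0128 in the interaction, and the replicate block 0.0463 and -0.0151.

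Signal near or under the floor limits what can be read for Plagl1, Grb10, H19 and the low sides of Peg3, Ndn and Mest.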
